A study of Mus musculus with 15 samples.

Results

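Expression of 9 genes that mark the stroma of the developing kidney was described in newborn mice with and without Dnmt1 in the Six2 lineage, together with CpG methylation in and around these genes in newborns and adults. The genes were chosen by name, with earlier results of these data known. They were Foxd1, Meis1, Tcf21, Pdgfra, Pdgfrb, Aldh1a2, Acta2, Col1a1 and Tnc. All 9 were found among the 46517 genes in the count files. Of 360390 CpG positions covered by 10 or more methylation calls in every one of 9 methylation samples, 143 lay in these genes or within 2 kb of them. In all, 15 samples were taken from C57BL/6 mice, 3 in each group. Control samples were kidneys at postnatal day 0 with floxed Dnmt1 alleles (Dnmt1 f/f), and knockout (KO) samples, of the same age, carried Six2Cre in addition to the same floxed alleles, so that control and KO both hold floxed Dnmt1. Both groups were measured by RNA sequencing and by reduced representation bisulfite sequencing (RRBS), which reads methylation at cytosines in CpG-rich restriction fragments. The remaining RRBS group was wild type at 6 weeks of age, so adults differ from controls in age and in the absence of the floxed alleles, and the effects of these cannot be told apart. The labels name cells positive for Six2 as the source, whereas their extraction protocol states that DNA came from the whole organ; whether the RNA did is not stated. The sex of the animals is not given, and nothing states that replicates were separate animals, so p-values measure the spread between these samples, which may be technical.

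Kidney stroma arises largely from progenitors that express the forkhead transcription factor Foxd1, and gives rise to interstitial fibroblasts, pericytes and mesangial cells. It surrounds the nephron progenitors, which express Six2 and form podocytes and tubules, and it signals to them and to the ureteric bud, among other routes through retinoic acid. Six2-driven Cre acts in the nephron lineage and not in the Foxd1 lineage. Dnmt1 is the enzyme that copies CpG methylation onto newly made DNA strands, so cells that divide without it lose methylation.

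The sequences just upstream of the annotated starts are shown for the 4 genes whose RNA was higher in KO. They hold the CpG sites of the promoter, of which only some were read. RefSeq promoter windows (build GRCm38) were matched for 7 of the 9 genes, all except Pdgfrb and Col1a1. Each line gives the 250 bases before the start, 5′ to 3′ on the strand of the gene, with every CG in capitals. The windows are chr13:98353995-98354244 (plus strand) for Foxd1, chr11:19018970-19019219 (minus strand) for Meis1, chr5:75152001-75152250 (plus strand) for Pdgfra and chr9:71215539-71215788 (plus strand) for Aldh1a2.
Foxd1: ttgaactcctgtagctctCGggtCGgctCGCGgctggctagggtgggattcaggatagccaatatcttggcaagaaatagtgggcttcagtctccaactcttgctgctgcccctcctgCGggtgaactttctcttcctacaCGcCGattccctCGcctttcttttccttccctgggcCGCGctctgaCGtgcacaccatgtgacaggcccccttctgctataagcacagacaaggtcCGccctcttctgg
Meis1: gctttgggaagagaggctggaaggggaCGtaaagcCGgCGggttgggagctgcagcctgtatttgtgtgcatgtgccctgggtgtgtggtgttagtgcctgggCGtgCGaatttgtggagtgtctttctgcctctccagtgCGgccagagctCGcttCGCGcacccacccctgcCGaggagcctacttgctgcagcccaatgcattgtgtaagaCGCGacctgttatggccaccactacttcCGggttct
Pdgfra: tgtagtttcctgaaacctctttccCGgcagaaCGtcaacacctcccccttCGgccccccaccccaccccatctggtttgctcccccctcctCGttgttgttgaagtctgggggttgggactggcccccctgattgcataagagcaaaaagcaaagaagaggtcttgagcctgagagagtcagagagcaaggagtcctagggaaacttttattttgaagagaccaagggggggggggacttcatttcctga
Aldh1a2: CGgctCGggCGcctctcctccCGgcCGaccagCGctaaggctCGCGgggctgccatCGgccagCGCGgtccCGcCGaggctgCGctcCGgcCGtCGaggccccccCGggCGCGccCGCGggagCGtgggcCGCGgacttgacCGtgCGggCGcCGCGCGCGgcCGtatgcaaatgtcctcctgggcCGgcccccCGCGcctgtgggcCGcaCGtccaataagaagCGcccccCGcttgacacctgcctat

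These upstream sequences held 12 CG in Foxd1, 13 in Meis1, 4 in Pdgfra and 40 in Aldh1a2. The Aldh1a2 promoter was the most CpG-dense of the 4, and only 0.855% of 32851 RefSeq windows of 300 bases (the 250 bases and the first 50 of the gene) held as many CG as it did. The sequence CCGG (its own reverse complement, so the same on both strands) was present in the Meis1, Pdgfra and Aldh1a2 sequences and not in that of Foxd1, and 52.8% of all the windows held it. Pooled over replicates, calls within the Aldh1a2 sequence were methylated in 0.508% of 2164 calls in control, 0.742% of 1078 in KO and 0.530% of 2831 in adult. In the Meis1 sequence 2.51% of 676 control calls, 0.607% of 494 KO calls and 0.209% of 955 adult calls were methylated. In Pdgfra the shares were 1.62% of 185, 2.70% of 111 and 1.65% of 182 calls. For Foxd1 the upstream sequence was read by 24 calls in control and 27 in KO, none methylated, and by 108 in adult, of which 4 were methylated. At the positions read, few control calls were methylated in the Meis1, Pdgfra and Aldh1a2 sequences. The Foxd1 sequence was read at 3 positions, none with 10 calls in every sample, so its 24 control calls fix its level only loosely. None of the 53 positions read in the Aldh1a2 sequence had 10 calls in every sample either. In Meis1 3 of 9 positions had as many, and in Pdgfra 1 of 4. Any part of promoter methylation in the RNA levels was not tested.

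Before the results, the libraries are described. RNA libraries held 26773937 to 34102567 reads on genes and RRBS libraries 18424875 (KO 3) to 88765177 (control 2) calls. Dnmt1 RNA was lower in KO (log2 fold change -0.74, edgeR adjusted p = 0.00577), at 156 to 188 CPM in controls against 93.7 to 111 CPM in KO. CPM is the read count of a gene per library size, on the scale that edgeR uses. Control 3 stood apart from the other RNA controls: its 6 tubule markers summed to 4216 CPM against 2478 and 2610 CPM in controls 1 and 2, and its 6 nephron progenitor markers to 157 CPM against 277 and 342 CPM. Without control 3 the number of genes higher in KO rose from 1153 to 2512 and the number lower from 1493 to 2561, and without KO 1 these were 647 and 701. Values without control 3 are given below wherever they change a call.

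Of the 9 stroma genes, 4 rose in KO kidneys and none passed the test as lower. Foxd1, Aldh1a2, Pdgfra and Meis1 were higher by edgeR's quasi-likelihood test at an adjusted p under 0.05, by 3.09-fold, 2.03-fold, 1.73-fold and 1.45-fold. The genes of contractile and matrix-producing cells, Acta2, Col1a1 and Tnc, and the receptor Pdgfrb had lower means in KO without passing the test. Over all 18132 genes tested, 6.36% were higher and 8.23% lower. Since the 9 genes were chosen with earlier results known, their share called is not independent evidence of an excess. The median log2 fold change was 0.32 over the 9 stroma genes and -0.00 over all genes tested. In kidney tissue as a whole, fewer cells of a type and less RNA per cell cannot be told apart, nor can more of either.

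Markers of other cell types moved at the same time. All 6 podocyte markers and all 6 tubule markers passed as lower in KO, with medians of -1.80 and -3.19 on the log2 scale. Summed podocyte markers were at 759 to 1070 CPM in controls and 283 to 362 CPM in KO, and tubule markers at 2478 to 4216 CPM and 386 to 460 CPM. Of 6 endothelial markers 4 were lower (2 without KO 1 or KO 2), with sums of 611 to 874 CPM in controls and 397 to 494 CPM in KO. Nephron progenitor markers had 1 higher and 1 lower of 6 (sums 157 to 342 CPM in controls and 279 to 322 CPM in KO), ureteric markers 2 higher of 6 (612 to 1054 CPM and 725 to 1015 CPM), and leukocyte markers 1 higher of 6 (66.5 to 87.0 CPM and 65.1 to 96.2 CPM). The higher counts of these 3 lists were 0 without control 1, KO 1 or KO 2, and 2, 3 and 2 without control 3; those of nephron progenitors and ureteric markers were also 0 without KO 3. No erythroid, neural, adrenal cortex or skeletal muscle marker passed the test. Erythroid sums were 389 to 1282 CPM in controls and 614 to 908 CPM in KO, neural sums 12.1 to 18.5 CPM and 17.3 to 19.8 CPM, and adrenal sums 3.02 to 7.61 CPM and 4.33 to 4.55 CPM. Skeletal muscle markers summed to 4.27 to 16.8 CPM in controls and 5.70 to 54.8 CPM in KO, where KO 1 was the highest. No marker of these 10 lists was at 0 in every sample. The part of these shifts in the levels of the stroma genes was not tested.

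Foxd1 (ENSMUSG00000078302.4, chr13:98354245-98356705), the transcription factor that defines the cortical stromal progenitors, was at 22.6, 20.2 and 10.8 CPM in controls 1 to 3 and at 54.1, 59.0 and 52.4 CPM in KO 1 to 3. Every KO sample was above every control, and control 3 was the lowest sample. Mean levels of 17.9 ± 6.24 CPM in controls against 55.2 ± 3.43 CPM in KO (SD, n = 3 per group) gave a log2 fold change of 1.63 (SE 0.25, edgeR adjusted p = 0.00394). Without control 3 the change was 1.36 on the log2 scale and still passed. Foxd1 had the largest change among the 9 genes.

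The genes whose pattern over the 6 RNA samples lay nearest to that of Foxd1 were sought among 13081 genes whose log2 CPM averaged 1 or more, by the root mean square difference of centred log2 CPM. The 5 nearest were Col22a1 (0.13), Ntsr1 (0.16), Tnni1 (0.16), Ntn1 (0.18) and Ogn (0.18), where the median over all candidates was 0.93. Ntn1, which encodes the secreted guidance cue netrin 1, was at 103, 107 and 74.0 CPM in controls and at 275, 298 and 273 CPM in KO. Ogn, which encodes the matrix proteoglycan osteoglycin, was at 55.3, 64.5 and 35.7 CPM in controls and at 138, 147 and 160 CPM in KO. Control 3 was the lowest sample of both genes, but they were picked for matching Foxd1 over these same samples. Their low control 3 and their rise in KO therefore follow from the choice.

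Meis1 (ENSMUSG00000020160.17, chr11:18880428-19019651), a homeobox transcription factor found throughout the renal stroma, was at 57.7, 74.3 and 78.6 CPM in controls and at 111, 94.8 and 99.7 CPM in KO. The groups did not overlap. Meis1 rose by 0.54 on the log2 scale (SE 0.14, edgeR adjusted p = 0.0377). The call was lost without control 1, control 2, KO 1, KO 2 or KO 3 (adjusted p = 0.103, 0.0605, 0.155, 0.0910 and 0.106) and kept without control 3 (0.00774).

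Tcf21 (ENSMUSG00000045680.7, chr10:22817263-22820143), a basic helix-loop-helix transcription factor of stroma that podocytes also express, was at 104, 116 and 167 CPM in controls and at 187, 141 and 157 CPM in KO. The groups overlapped through control 3, whose value was above KO 2 and KO 3. Its change of 0.32 on the log2 scale did not pass (SE 0.19, edgeR adjusted p = 0.334). Without control 3 it was 0.55 with an adjusted p of 0.0145, and with limma voom it was 0.47 with an adjusted p of 0.0316.

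The 2 receptors for platelet-derived growth factor (PDGF) had opposite signs. Pdgfra (ENSMUSG00000029231.14, chr5:75151322-75198206), the receptor of interstitial fibroblasts, was at 172, 147 and 155 CPM in controls and at 295, 252 and 273 CPM in KO. Every KO sample was above every control, and the groups differed by 0.79 on the log2 scale (SE 0.12, edgeR adjusted p = 0.00401). This call was kept without any 1 sample.

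Pdgfrb (ENSMUSG00000024620.10, on chromosome 18), the receptor of pericytes, mesangial cells and other mural cells, was at 221, 159 and 220 CPM in controls and at 135, 128 and 156 CPM in KO. Every KO sample was below every control, KO 3 by the narrowest margin to control 2. The log2 fold change of -0.52 (SE 0.16, edgeR adjusted p = 0.0659) did not pass the threshold, but passed without control 2 (-0.66, adjusted p = 0.0195), with DESeq2 (adjusted p = 0.0401), with limma voom (0.0203) and with no filter on low counts (0.0404).

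Aldh1a2 (ENSMUSG00000013584.5, chr9:71215789-71296243), the stromal dehydrogenase that makes retinoic acid, was at 254, 221 and 150 CPM in controls and at 384, 412 and 474 CPM in KO. The groups did not overlap, and control 3 was again the lowest sample. Aldh1a2 rose by 1.02 on the log2 scale (SE 0.20, edgeR adjusted p = 0.0126). It was 0.83 without control 3 (adjusted p = 0.00167) and 0.93 without KO 3, where the call was lost (adjusted p = 0.0577).

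Acta2 (ENSMUSG00000035783.8, chr19:34240336-34255585), the smooth muscle actin of vessel walls and activated fibroblasts, was at 406, 364 and 349 CPM in controls and at 325, 211 and 327 CPM in KO. Every KO sample was below every control, with KO 2 far below the others, and the log2 fold change of -0.38 (SE 0.19, edgeR adjusted p = 0.238) did not pass the test. Col1a1 (ENSMUSG00000001506.10, chr11:94936224-94953042), a chain of type I collagen, was at 1309, 894 and 966 CPM in controls and at 879, 852 and 996 CPM in KO. These groups overlapped (log2 fold change -0.22, SE 0.19, edgeR adjusted p = 0.535).

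Tnc (ENSMUSG00000028364.14, chr4:63959785-64047015), the matrix glycoprotein tenascin C, was at 142, 135 and 187 CPM in controls and at 138, 138 and 127 CPM in KO. Apart from control 3 the samples lay close together, and the change of -0.21 on the log2 scale did not pass (SE 0.14, edgeR adjusted p = 0.408). Among the 9 genes, 4 had every KO sample above every control and 2 every KO sample below, patterns that 16.5% and 17.8% of all tested genes showed. RefSeq annotates other genes over Meis1 (Gm16141), Tcf21 (Gm10824), Pdgfra (Mir7025) and Tnc (8030451A03Rik). Whether strand was used in counting is not stated, so reads of these pairs cannot be told apart.

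**Figure D1:**
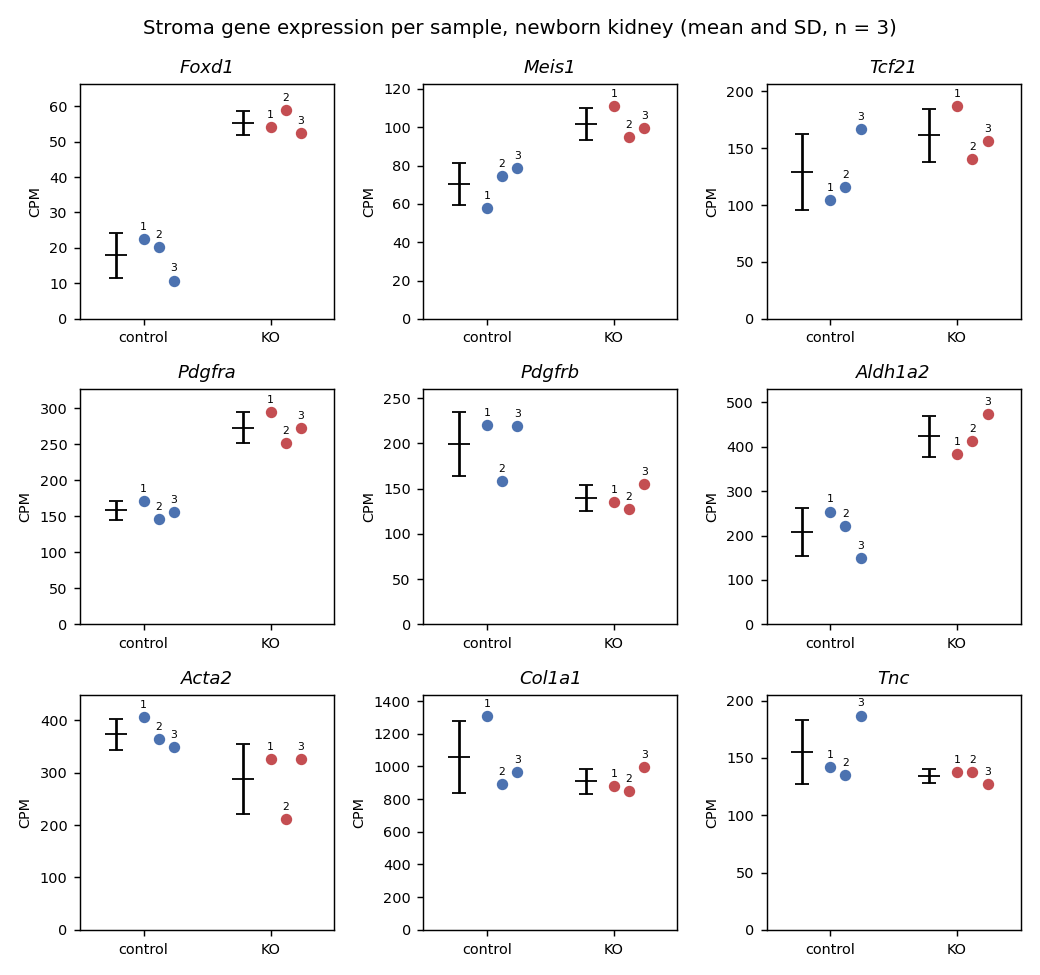
RNA level of the 9 stroma genes in CPM (linear axis from 0) for each newborn control and KO sample, numbered by replicate; bars give the mean and SD of 3 samples. Foxd1, Meis1, Pdgfra and Aldh1a2 had all KO samples above all controls, Pdgfrb and Acta2 all KO samples below, and Tcf21, Col1a1 and Tnc overlapped.

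The related genes of each pathway were read from 6 further lists, also chosen with earlier results of these data known. Their shares called are therefore not independent evidence of an excess. For comparison, 14.6% of all tested genes were called, 6.36% as higher and 8.23% as lower. The share called in either direction was 12.5% in the contractile and mural list and 16.7% in each of the PDGF and matrix lists. It was 23.5% in the retinoic acid list and 28.6% in the list of stromal signals. Of 17 other stromal transcription factors none passed in either direction, and their median log2 fold change was 0.23. The 3 with the smallest p were Snai2, a zinc finger factor of mesenchyme (36.9 ± 9.01 CPM in controls against 57.9 ± 9.69 CPM in KO, with SD, n = 3 per group), Tbx18, a T-box factor of ureteric mesenchyme (3.08 ± 0.954 and 7.11 ± 3.46 CPM), and Meis2, a paralogue of Meis1 (158 ± 7.75 and 199.8 ± 19.0 CPM). Their log2 fold changes were 0.65, 1.21 and 0.34, with edgeR adjusted p of 0.0672, 0.0958 and 0.0986. Snai2 and Tbx18 passed without control 3 (adjusted p = 0.00671 and 0.0492), Tbx18 also without KO 2 (0.0439), and both with DESeq2 (0.0282 and 0.0182).

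Of 17 tested genes of retinoic acid synthesis, transport and reception (18 listed), 4 rose and none fell, with a median log2 fold change of 0.50. They were Rxrg, a retinoid X receptor, which went from 0.527 ± 0.197 to 2.81 ± 0.223 CPM (log2 fold change 2.41, edgeR adjusted p = 0.00312), Crabp2, a retinoic acid carrier, from 12.2 ± 4.93 to 34.7 ± 7.65 CPM (1.51, adjusted p = 0.0173), and Aldh1a1, a paralogue of Aldh1a2, from 8.82 ± 3.77 to 24.1 ± 2.11 CPM (1.45, adjusted p = 0.0127; SD, n = 3 per group). The receptor Rarb, named after its values were seen because it completes the count, rose by 0.61 on the log2 scale (adjusted p = 0.0244). Every KO sample was above every control in these 4 genes, a pattern of 16.5% of all tested genes. It is not separate evidence, since the 4 were picked by the test on the same values. The count was 2 without control 1, KO 1 or KO 2 and 8 without control 3.

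Among 12 genes of PDGF ligands and signalling, 2 fell and none rose, and the median log2 fold change was -0.03. Both were ligands: Pdgfa, the ligand of Pdgfra, was at 77.9, 61.1 and 63.9 CPM in controls and at 41.3, 46.2 and 51.7 CPM in KO (log2 fold change -0.54, edgeR adjusted p = 0.0333). Pdgfb, the ligand that endothelial cells send to Pdgfrb-bearing mural cells, was at 47.3, 23.9 and 35.8 CPM in controls and at 18.2, 16.2 and 22.04 CPM in KO (-0.92, adjusted p = 0.0413). In both genes every KO sample was below every control, a pattern of 17.8% of all tested genes that is not separate from the test. Pik3r1, a kinase subunit downstream of the receptors, had the next smallest p (0.30, edgeR adjusted p = 0.144). Neither ligand passed without control 1, KO 1, KO 2 or KO 3, where the count was 0. The 4 of 6 endothelial markers that were lower stand beside the value of Pdgfb, and their part in it was not tested.

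Of 16 contractile and mural genes 1 rose and 1 fell, with a median of -0.05. These counts lie near the shares of all tested genes, 6.36% higher and 8.23% lower. Des, the intermediate filament desmin of muscle and mesangial cells, went from 36.7 ± 6.29 to 65.5 ± 2.24 CPM (log2 fold change 0.84, edgeR adjusted p = 0.00612), and Cspg4, the NG2 proteoglycan of pericytes, from 68.6 ± 9.86 to 45.5 ± 5.45 CPM (-0.59, adjusted p = 0.0291; SD, n = 3 per group). Mcam, an adhesion molecule of pericytes and endothelium, had a log2 fold change of -0.52 that missed the threshold (adjusted p = 0.0515). The count of lower genes was 0 without control 1, KO 1 or KO 2 and 3 without control 3, and the count of higher genes was 2 without KO 2.

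Of 24 interstitial matrix genes 4 fell and none rose, and the median log2 fold change was -0.20. Bgn, the small proteoglycan biglycan, went from 380.3 ± 39.1 to 219 ± 24.6 CPM (-0.80, edgeR adjusted p = 0.00774), Eln, elastin, from 263 ± 19.7 to 142 ± 29.2 CPM (-0.89, adjusted p = 0.00924), and Col14a1, a collagen that sits on fibrils, from 157 ± 23.4 to 106 ± 13.0 CPM (-0.56, adjusted p = 0.0386; SD, n = 3 per group). Thbs2, a thrombospondin named after its values were seen, was the remaining one (-0.89, adjusted p = 0.0457). The number lower was 2 without control 1 or KO 3, 1 without KO 1 or KO 2, and 8 without control 3, where 2 were also higher.

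Of 14 stromal signals 2 rose and 2 fell, with a median of 0.02. Ntn1 had the smallest p (log2 fold change 1.58, edgeR adjusted p = 0.000622), and Fat4, a large protocadherin through which stroma acts on nephron progenitors, went from 102 ± 12.1 to 212 ± 58.5 CPM (1.05, adjusted p = 0.0102). Slit3, a guidance ligand, fell from 35.6 ± 7.64 to 16.8 ± 0.574 CPM (-1.09, adjusted p = 0.00496; SD, n = 3 per group), and Sfrp1, a secreted Wnt antagonist named after its values were seen, fell by 0.53 on the log2 scale (adjusted p = 0.0252). The number lower was 1 when any sample other than control 3 was left out.

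**Figure D2:**
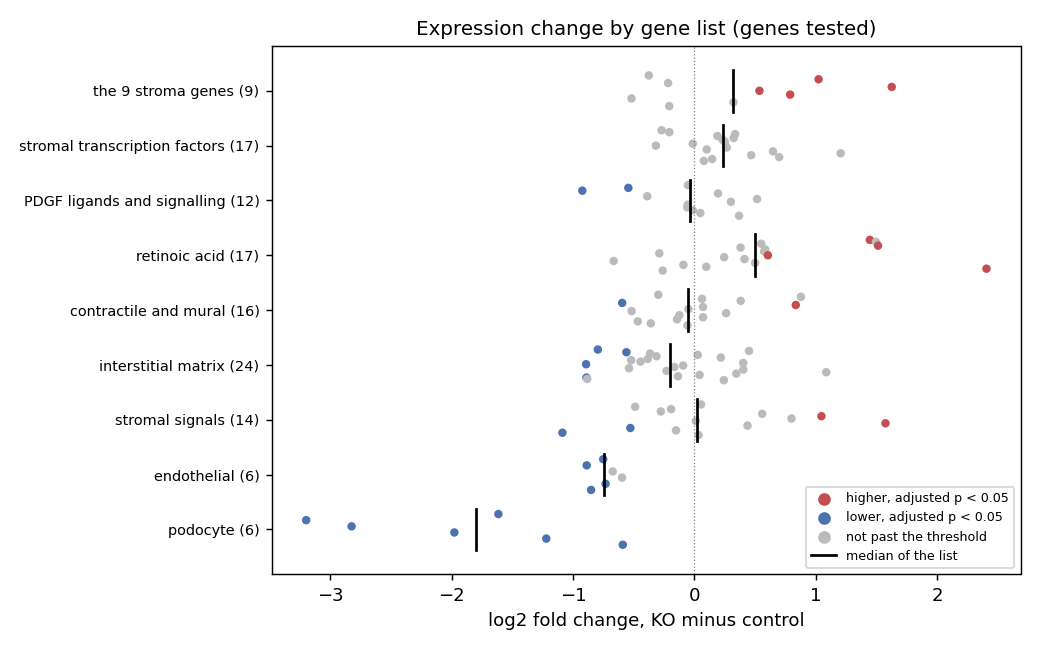
Log2 fold change in RNA (KO minus control, 3 samples each) of every tested gene in the stroma lists and in 2 marker lists, with the list median as a black bar and the number of genes tested in brackets. Coloured points passed an adjusted p of 0.05; the 9 stroma genes had a median of 0.32, retinoic acid genes 0.50, matrix genes -0.20 and podocyte markers -1.80.

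Mean methylation of the stroma genes was lower in KO than in control. The positions read near the starts of Foxd1, Meis1, Pdgfra and Aldh1a2 were close to 0 in both. These levels average over all cells that gave DNA, by the extraction protocol those of the whole organ. They do not show whether methylation was lost in stroma or in the Six2 lineage, where Cre acts. At Tcf21 9.49% of 158 control calls and 1.41% of 71 KO calls were methylated in the 250 bases upstream of its start. These calls came from 6 positions, none with 10 calls in every sample. Over the 143 positions methylation averaged 28.8% ± 0.222 in controls against 20.8% ± 3.14 in KO (SD, n = 3 per group), where the averages were 51.1% ± 0.192 and 37.7% ± 1.85 over all 360390 positions. By group means the share of the control level lost ranged from 14.6% in Tnc to 36.2% in Col1a1. The median of 18509 annotated gene regions of the series lost 25.6%. In Foxd1, Tcf21 and Tnc the groups overlapped, so their shares do not establish a loss. That of Foxd1, 26.9%, came from means of 1.25% in controls and 0.915% in KO. At the 25 stroma-gene positions that were at least 80% methylated in adults, the mean fell from 89.4% in controls to 64.5% in KO, and at 139167 such positions of the series from 89.8% to 66.2%.

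Each gene region, the gene with 2 kb on either side, was described by its mean over positions that all 9 samples covered with 10 or more calls, and a region was called where a quasi-binomial model of its summed calls gave an adjusted p under 0.05 and the mean changed by at least 10 percentage points. Of 7 regions with at least 5 positions, Pdgfra, Pdgfrb and Col1a1 were called lower in KO, while 45.3% of all gene regions were. None was called higher, as was the case for 0.027% of all regions. Every KO mean lay below every control in 6 of the 9 genes, against 69.7% of all regions, and above in none, against 0.805%. With 3 samples against 3 the smallest two-sided exact permutation p is 0.1, and this was reached wherever the groups did not overlap.

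Foxd1, the gene with the largest rise in RNA, was almost unmethylated at the positions read. Of these, 6 lay in a short stretch 407 to 449 bases downstream of the start, and 1 lay at 2585 bases. Over 7 positions its region was at 1.30%, 2.45% and 0.00% in controls and at 1.64%, 0.00% and 1.10% in KO. The groups overlapped, and the difference was -0.34 percentage points. With 5 kb on either side, which took in 9 positions, it was -6.90 points and did not pass (quasi-binomial adjusted p = 0.282). Control 3 had 0 methylated of 217 calls, which allows a share of up to 1.38%, and KO 2 had 0 of 114, which allows up to 2.63%. These limits cover counting error only.

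Meis1 was at 6.34%, 5.97% and 6.14% in controls and at 5.64%, 4.30% and 3.22% in KO over 50 positions. Every KO sample was below every control, by 1.77 points between means, under the 10 points asked for (quasi-binomial adjusted p = 0.0364). Tcf21, with 5 positions, was at 11.8%, 10.2% and 7.53% in controls and at 7.06%, 10.6% and 2.32% in KO. Here the groups overlapped.

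Pdgfra, higher in RNA, was at 40.4%, 43.4% and 43.8% in controls and at 38%, 27.3% and 30.7% in KO over 26 positions. The groups did not overlap, KO 1 lying closest to the controls, and the difference of -10.52 points passed (quasi-binomial adjusted p = 0.000214). It fell to under 10 points without control 3, KO 2 or KO 3 (-9.90, -8.17 and -9.89). Pdgfrb, with lower RNA in every KO sample, was at 55.6%, 51.7% and 56.9% in controls and at 46.6%, 33.8% and 39.05% in KO over 15 positions.

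In Pdgfrb, too, the groups did not overlap (-14.91 points, quasi-binomial adjusted p = 0.0331), but the call was lost without control 1, control 3, KO 2 or KO 3 (adjusted p = 0.0626, 0.0776, 0.127 and 0.0664). Both PDGF receptors thus had lower methylation in KO, while their RNA levels had opposite signs. The cells that lost methylation need not be those that express the receptors, and a tie between the 2 measures was not tested. Aldh1a2 was at 26.0%, 24.9% and 24.6% in controls and at 20.4%, 11.2% and 19.98% in KO over 18 positions, lower in all KO samples by less than 10 points between means (-7.95, quasi-binomial adjusted p = 0.00822). This difference depended on the positions used: it was called with positions weighted by coverage (-12.53, adjusted p = 0.00822) and in the gene body alone (-12.18, adjusted p = 0.0154), and was -3.23 points at 5 calls or more and 1.17 points at 20 calls or more.

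Col1a1 had the largest share lost, 36.2%. It was at 49.1%, 54.4% and 51.3% in controls and at 40.2%, 31.4% and 27.2% in KO over 14 positions, and the groups did not overlap (-18.68 points, quasi-binomial adjusted p = 0.00342). Acta2 and Tnc had 4 positions each, too few for the region model. Acta2 was at 82.6%, 83.2% and 87.2% in controls and at 67.4%, 52.0% and 69.2% in KO, without overlap. Tnc was at 81.3%, 74.8% and 74.2% in controls and at 59.1%, 56.7% and 80.8% in KO, where KO 3, the shallowest RRBS library, lay among the controls.

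**Figure D3:**
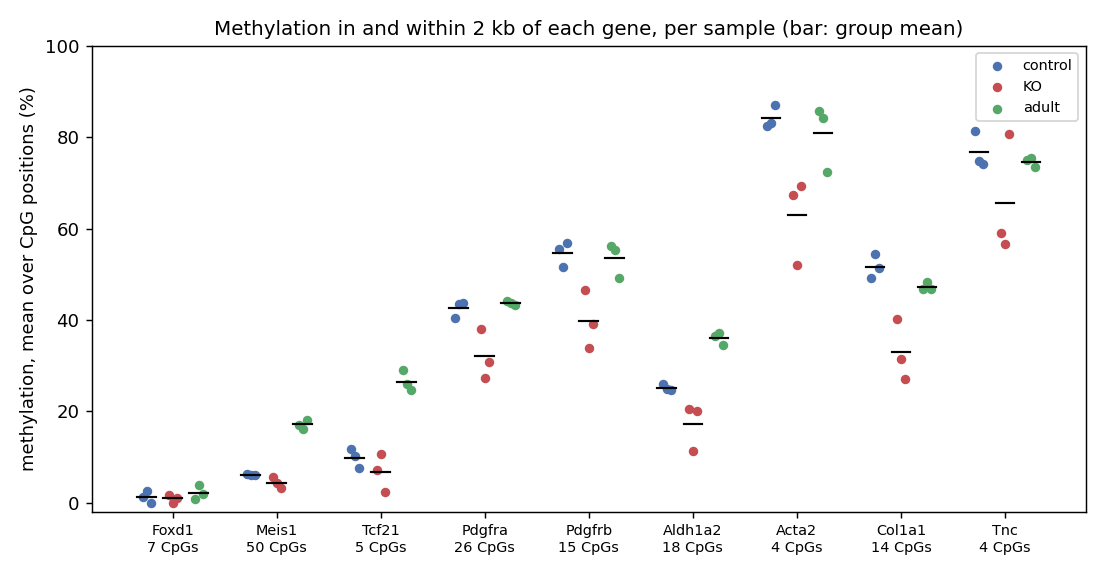
Methylation in percent of calls, averaged over the CpG positions in and within 2 kb of each stroma gene, for each of 9 RRBS samples (points) with group means (black bars). KO samples lay below controls in every gene but Foxd1, Tcf21 and Tnc, where they overlapped, and adult samples lay above controls in Meis1, Tcf21 and Aldh1a2.

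Single positions were also read by their level in controls. Of 152 stroma-gene positions with at least 10 calls in the 6 samples compared, 32 were lower in KO and 1 was higher at a quasi-binomial adjusted p under 0.05 and 10 points, where 35.6% and 0.146% of all 380162 positions were. Of 48 positions at 50% or more in controls, 31 were lower, a class in which 61.4% of 213383 positions of the series were. None of 91 positions under 20% in controls was lower, and 0.213% of the series' positions of that class were. By gene, positions called lower numbered 0 of 7 in Foxd1, 1 of 52 in Meis1, 0 of 5 in Tcf21, 10 of 28 in Pdgfra, 5 of 18 in Pdgfrb, 4 of 18 in Aldh1a2, 4 of 6 in Acta2, 6 of 14 in Col1a1 and 2 of 4 in Tnc. Neighbouring positions share reads, and 1 pair of those called are the adjacent bases of a single CpG, so positions are not replicates. Of all stroma-gene positions tested, 21.1% were lower. Without KO 3, the shallowest library, 316 positions could be tested and 45 were lower (14.2%), without control 2 the number was 15 of 152 (9.87%), and without KO 2 it was 13 of 164 (7.93%).

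In Tnc the position with the largest decrease (chr4:64017362, in the gene) was at 100%, 82.9% and 92.3% in controls and at 25%, 43.3% and 57.1% in KO (quasi-binomial adjusted p = 0.00188). The only stroma-gene position called higher in KO was also in Tnc (chr4:63977115, in the gene), at 32.8%, 30.2% and 14.6% in controls and at 52.9%, 41.1% and 74.2% in KO (adjusted p = 0.0296). Both positions separated the groups, in opposite directions within 1 gene. They were picked as the largest changes past the threshold on these same values, so the separation is not separate evidence. The call of the higher one was lost without control 2, control 3, KO 1 or KO 3, where no position was higher.

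In Pdgfra, Aldh1a2, Col1a1, Acta2 and Pdgfrb the position with the largest decrease lay in the gene body or flank and averaged over 80% in controls. In Pdgfra it was at chr5:75195535, where means went from 92.1% ± 4.43 in controls to 55.7% ± 21.7 in KO (SD, n = 3 per group, quasi-binomial adjusted p = 0.00812). In Aldh1a2 chr9:71286667 went from 85.1% ± 6.74 to 50.4% ± 19.2 (adjusted p = 0.00250), and in Col1a1 chr11:94954896, in the flank, from 83.4% ± 3.12 to 46.0% ± 18.3 (adjusted p = 0.00232). The Acta2 position chr19:34246642 went from 81.5% ± 17.0 to 47.5% ± 6.19 (adjusted p = 0.0242). In Pdgfrb a position 7319 bases from the end of the gene with the lower coordinate went from 92.5% ± 7.70 to 49.1% ± 13.6 (adjusted p = 0.0119). KO samples spread more widely than controls at 4 of these 5 positions, Acta2 being the exception.

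Adults were compared with the same controls, so the adult and KO comparisons share their control samples and are given side by side. Adult levels also average over all cells that gave DNA, so the cells in which they differed cannot be told. In adults 3 of the 7 gene regions were called higher, Meis1, Tcf21 and Aldh1a2, where 2.51% of all gene regions were, and none was called lower, where 3.74% were. Meis1 was at 17.1%, 16.2% and 18.2% in adults against 6.15% ± 0.186 in controls (quasi-binomial adjusted p = 4.86e-06), Tcf21 at 29.0%, 25.9% and 24.6% against 9.84% ± 2.15 (adjusted p = 0.00452), and Aldh1a2 at 36.5%, 37.1% and 34.5% against 25.2% ± 0.745 (adjusted p = 0.0400; SD, n = 3). Every adult sample was above every control in these 3 regions, a pattern of 14.7% of all regions. With positions weighted by coverage the differences of Meis1 and Aldh1a2, 10.98 and 10.85 points, were 9.44 and 8.64 points, under the 10 asked for. At 5 calls or more that of Aldh1a2 was 4.13 points (adjusted p = 0.312), at 20 calls or more 37.1 points, and in the gene body alone 16.9 points. The Aldh1a2 call was lost without control 2, control 3, adult 1 or adult 3 (adjusted p = 0.130, 0.0780, 0.0925 and 0.151).

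The other genes had adult means close to those of controls. They were 2.21% ± 1.54 in Foxd1, 43.7% ± 0.480 in Pdgfra, 53.5% ± 3.76 in Pdgfrb, 80.9% ± 7.29 in Acta2, 47.3% ± 0.879 in Col1a1 and 74.7% ± 1.04 in Tnc (SD, n = 3). In Col1a1 every adult was below every control, a pattern of 24.3% of all regions, by 4.35 points between means that did not pass the test (adjusted p = 0.160). In Pdgfra the sign depended on the weighting: the mean over positions was 1.21 points higher in adults, and the summed calls were 8.88 points lower.

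The adult gain in Meis1 and Aldh1a2 lay mainly more than 1 kb downstream of the start. In Meis1 the 22 positions within 1 kb of the start were at 1.93% ± 0.552 in controls, 1.38% ± 0.246 in KO and 1.89% ± 0.113 in adults. The 21 positions from 1 to 10 kb downstream were at 8.56%, 7.93% and 6.85% in controls, 6.72%, 5.19% and 1.65% in KO and 27.4%, 27.4% and 32.4% in adults. All adults were well above all other samples there. KO 1, at 6.72%, lay just under control 3, at 6.85%, and the KO mean was 3.26 points below that of controls. Over 3623 genes the median KO change in this band was -11.4 points, at a median control level of 51.5%. Further than 10 kb downstream, 7 Meis1 positions were at 14.5% ± 1.19 in controls, 13.4% ± 1.79 in KO and 29.2% ± 3.61 in adults.

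In Aldh1a2 the 9 positions near the start were at 3.17% ± 0.266 in controls, 2.06% ± 1.01 in KO and 3.86% ± 0.841 in adults. A cluster of 4 positions, 1619 to 1734 bases downstream of the start, was at 2.17%, 3.30% and 3.03% in controls, 6.76%, 2.92% and 7.91% in KO and 47.9%, 53.0% and 48.3% in adults. This short stretch was thus nearly unmethylated in both newborn groups and close to 50% in all adults. The 5 positions over 10 kb downstream were at 82.6% ± 3.54 in controls, 53.6% ± 15.4 in KO and 82.9% ± 2.32 in adults.

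In Tcf21 the 2 positions upstream of the start were at 20.6% ± 3.23 in controls, 13.0% ± 9.0 in KO and 45.2% ± 5.92 in adults, and the 3 positions downstream at 2.70% ± 1.63, 2.43% ± 1.63 and 14.0% ± 2.98. Over all genes, the mean of positions from 1 to 10 kb downstream of the start rose by at least 10 points in adults in 8.14% of 3623 genes and fell by as much in 7.81%, with a median change of -0.19 points. Within 1 kb of the start, 1.59% of 7148 genes rose as much. These distance bands were chosen after the data were seen and carry no test.

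At single positions 33 of 339 stroma-gene positions were higher in adults and 1 was lower, where 1.79% and 1.84% of 704580 positions of the series were. Meis1 held 23 of those higher, of 83 tested, and 18 of these lay from 1 to 10 kb downstream of its start, with increases of 15.6 to 42.4 points. Another 4 lay further downstream, and 1 lay within 1 kb of the start, with an increase of 11.1 points. Aldh1a2 held 4, all in the cluster named above, Tcf21 3 of 11, Pdgfra 2 of 63 and Pdgfrb 1 of 30. Foxd1 had 0 of 43, Acta2 0 of 4, Col1a1 0 of 31 and Tnc 0 of 8. The total was 21 without adult 3.

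The largest Aldh1a2 increase (chr9:71217483, in the gene) was from 3.30%, 3.92% and 7.35% in controls to 52.0%, 70.5% and 69.4% in adults (quasi-binomial adjusted p = 6.5e-05), while KO samples were at 13.0%, 0.00% and 13.8%. In Meis1, chr11:19016403 went from 0.00% in all 3 controls to 34.8%, 50% and 42.5% in adults (adjusted p = 0.00530). Both were low in every control and high in every adult, which is not separate evidence, since they were picked for the largest increase. Another Meis1 position, chr11:19009674, was called in both comparisons and in opposite directions: it was at 34.2%, 28.2% and 27.8% in controls, 22.03%, 13.1% and 10.7% in KO (adjusted p = 0.0188) and 79.5%, 63.6% and 62.0% in adults (adjusted p = 0.000721).

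The largest Tcf21 increase was upstream of the gene (chr10:22820572), from 15.8%, 15.7% and 0.00% in controls to 50%, 50% and 44.9% in adults (quasi-binomial adjusted p = 0.0127). Pdgfra held the widest contrast of all at chr5:75183329, in the gene, at 0.00%, 29.4% and 0.00% in controls and 100%, 93.5% and 96.9% in adults (adjusted p = 0.000950). No other stroma-gene position rose as far. The 1 position lower in adults was also in Pdgfra (chr5:75195140), at 100%, 95.5% and 100% in controls and 50%, 52.9% and 64.0% in adults (adjusted p = 0.0169), and its call was lost without control 1, control 3, adult 1 or adult 2. In Pdgfrb a position 231 bases from the end of the gene with the lower coordinate was at 0.00% in all 3 controls and at 26.9%, 48.6% and 17.6% in adults (adjusted p = 0.0101).

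**Figure D4:**
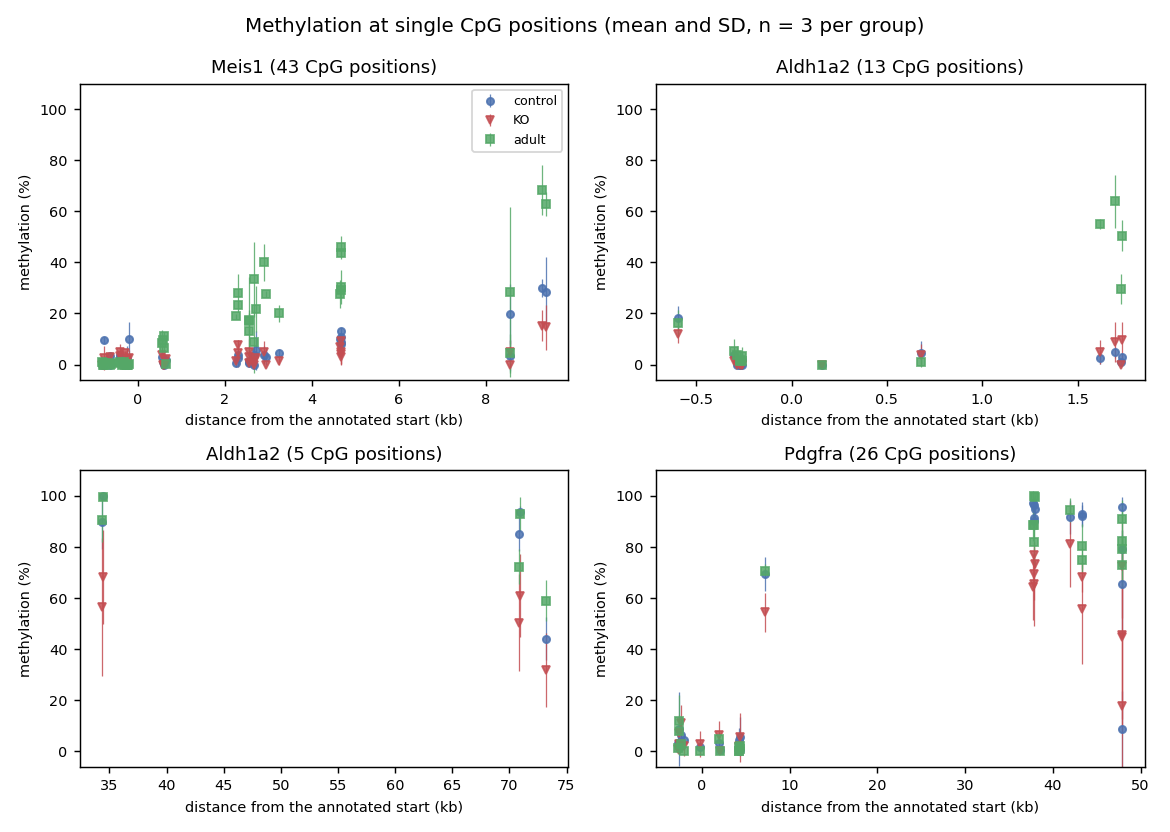
Methylation in percent (mean and SD, 3 samples per group) at single CpG positions of Meis1, Aldh1a2 (2 panels) and Pdgfra against the distance from the annotated start in kb. Adults rose above controls and KO downstream of the starts of Meis1 and Aldh1a2, where the 4 Aldh1a2 positions averaged 49.8% in adults and 2.83% in controls, while KO lay below controls at the highly methylated positions of Aldh1a2 and Pdgfra.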

How the data were processed

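RNA was sequenced in 3 control and 3 KO samples and RRBS was run on 3 control, 3 KO and 3 adult samples, grouped by the labels. The deposited RNA files hold raw counts of reads on each gene; 5 closing lines on unassigned reads (22.9% to 35.8% of the file totals) were not used. For each cytosine, the deposited RRBS files list the percent methylated with its counts of methylated and unmethylated calls. The submitters' processing notes name Trim Galore, Bismark, STAR 2.4.1d, HTSeq 0.6.1 and the builds mm10 and GRCm38, with no settings. The build was checked: 234698 of 234707 positions within RefSeq promoter windows of GRCm38 lay on a CG.

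Gene counts went into edgeR 4.0.16 (R 4.3.3) and its quasi-likelihood test (TMM, the edgeR filter on low counts, Benjamini-Hochberg over 18132 genes, adjusted p under 0.05). CPM values are TMM-scaled. A quasi-binomial logistic model of methylation calls was fitted with Python 3.11.15 (numpy 2.4.6, scipy 1.17.1), its dispersion moderated over all positions or regions and not allowed under 1, with at least 10 calls per sample, an adjusted p under 0.05 and 10 percentage points. Counting error alone is 15.8 points for a sample with 10 calls at 50% methylation. On simulated data, the RNA test recovered 58% of genes changed by 1 on the log2 scale and 93% of those changed by 2, calling 11 unchanged genes, and the position model recovered 50.2% of 3000 positions lowered by 25 points among 60000, with 4.93% of its calls unchanged.

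The 9 genes and all lists were chosen with earlier results of these data known. From each list the 3 genes with the smallest p were named, from each region the positions with the largest decrease and increase past the threshold, and the 5 genes nearest to Foxd1 in pattern, clone names left out. Alternatives used DESeq2 1.42.0, limma 3.58.1, other scalings, filters, coverage minimums, region limits, a replicate block and each replicate left out.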

Additional observations from a re-analysis of the deposited data

How the results depend on the processing

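Foxd1 and Pdgfra passed as higher in KO under every RNA alternative run. The number of stroma genes higher in KO, 4, became 2 at an adjusted p under 0.01, 2 to 5 with each replicate left out and 5 with limma voom, where Tcf21 also passed, and the number lower, 0, became 1 with DESeq2, limma voom or no filter on low counts and 0 to 1 with a replicate left out. With library size alone Meis1 lost its call (adjusted p = 0.0622). In gene regions the 3 called lower in KO became 4 (with Aldh1a2) with positions weighted by coverage or in the gene body alone. They became 1 at 20 calls or more and 1 to 3 with a replicate left out. Within 1 kb of the start none of these 3 regions could be tested. Pdgfra had 1 position there, under the 5 asked for, and Pdgfrb and Col1a1 had no listed start. The 3 called higher in adults became 1 with positions weighted by coverage and 2 to 3 with a replicate left out. Within 1 kb of the start Tcf21, with 2 positions, could not be tested, and Meis1 and Aldh1a2 were not called. The 32 single positions lower in KO became 13 at an adjusted p under 0.01, 7 at 20 calls or more and 13 to 45 with a replicate left out, and the 1 higher became 0 at an adjusted p under 0.01 and 0 to 1 with a replicate left out. The 33 positions higher in adults became 21 at 25 points, 21 at an adjusted p under 0.01, 56 with no overdispersion and 21 to 29 with a replicate left out, and the 1 lower became 0 at an adjusted p under 0.01 or at 20 calls or more, 14 with no overdispersion and 0 to 1 with a replicate left out. At 20 calls or more, and within 1 kb of the start, fewer positions were tested. For the other changes the cause was not tested. Some differences, in points, changed sign. In KO these were Foxd1 (-0.96 to 0.26 with a replicate left out, above 0 without control 2 and, at 0.12, without KO 2) and Aldh1a2 (1.17 at 20 calls or more). In adults they were Foxd1 (-0.79 in the gene body and likewise within 1 kb of the start), Meis1 (-0.041 within 1 kb of the start), Pdgfra (-8.88 weighted by coverage, -1.93 at 5 calls or more, -0.85 at 20 calls or more, -2.64 in the gene body) and Pdgfrb (-2.69 to 0.99 with a replicate left out, above 0 without adult 3). None of these was a call in the report except Meis1 in adults.

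A replicate block left 3 stroma genes higher in KO (Meis1 lost its call, adjusted p = 0.0969), 3 regions lower in KO, 3 regions higher in adults, 33 positions lower in KO and 39 positions higher in adults. Nothing in the labels says that equal numbers pair samples, and deviations of equally numbered RNA samples from their group means correlated at -0.24 to -0.07. KO 3 had a median of 4 calls per position, and leaving it out raised the stroma-gene positions tested from 152 to 316.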
